A study of Mus musculus with 36 samples.

Results

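The difference between restricted progenitors (RPs) and hematopoietic stem cells (HSCs) was examined in Tet2KO mice, from 4 Tet2KO RP and 4 Tet2KO HSC libraries. These 8 libraries were chosen by the genotype and cell type in the names of the deposited columns, out of 18 RNA libraries used here and 36 samples in the series. The same difference in mice with Tet2, from 4 Control RP and 3 Control HSC libraries, served as the reference. All mice were C57BL/6 and 8 weeks old. All of them carried the Vav-driven Cre recombinase. In the Tet2KO groups it acted on Tet2fl/fl alleles, whereas the Control groups were Dnmt3a+/+ and Tet2+/+. A further 3 libraries of Dnmt3aKO HSCs, given in the protocol as Dnmt3afl/fl or +, shared the fit and serve as a further set of HSCs. HSCs were sorted as Lin-, cKit+, Sca1+, CD150+ and CD48-, and RPs from the same Lin-, cKit+, Sca1+ compartment as CD150- (printed as C-150- in the labels) and CD48+. Vav drives Cre throughout the blood system, so Tet2 was deleted in blood cells at large and not in stem cells alone. Each library came from a pool of male and female mice, for which the protocol states more than 1 size. The tests rest on how much the libraries of a group vary, and it was not shown that these came from separate pools. Libraries were made from small amounts of RNA with the SMARTer Ultra Low kit.

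HSCs are the mostly quiescent cells that sustain blood formation for life, and they give rise to progenitors that divide more often and have a narrower range of fates. CD150 marks the stem cells of this compartment, and CD48 appears as they commit. TET2 is an enzyme that oxidises 5-methylcytosine, the first step of active DNA demethylation. Its loss is common in clonal expansions of blood stem cells.

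No source used here links the transcript identifiers to gene names. The markers of either gate, markers of other cell types and the Tet2 transcripts themselves were therefore not read out, and the label of each group rests on its sort. By the rule for named features, 4 transcripts are given by identifier and the rest by counts and ranges. In bulk libraries such as these, fewer cells of a type and less RNA per cell cannot be told apart.

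The Tet2KO HSC libraries held 5486287 to 9366421 counts and the Tet2KO RP libraries 4210597 to 6628078. Control HSCs held 4949973 to 6453611 and Control RPs 3721009 to 7649318. Reduced by calculation to 3721009 counts each, Control HSC libraries held 31276 to 37439 transcripts with a count and Tet2KO HSC libraries 33540 to 44049. Control RPs held 39880 to 41794 and Tet2KO RPs 41928 to 44910. HSC libraries numbered 4 held the fewest transcripts of their group (31276 in Control and 33540 in Tet2KO), so counts are given below with and without both. Dnmt3aKO HSC replicate 4 held fewer still, at 25496, and stayed in all of these fits.

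ENSMUST00000015460.4 and ENSMUST00000205228.2 had the largest falls from Tet2KO HSCs to Tet2KO RPs by the naming rule. ENSMUST00000015460.4 was at 103, 114, 62.6 and 147 CPM (counts scaled to an equal library size) in Tet2KO HSC replicates 1 to 4. In Tet2KO RP replicates a to d it was at 1.12, 0.186, 0.227 and 3.09 CPM. The lowest HSC library lay far above the highest RP library. The naming rule admits only transcripts whose groups do not overlap, so the lack of overlap is no finding for any named transcript. The means were 107 ± 35 CPM (SD, n = 4) in HSCs and 1.15 ± 1.36 CPM (n = 4) in RPs, which is -6.43 ± 0.58 (SE) on the log2 scale. Its p, from the quasi-likelihood test of edgeR and adjusted after Benjamini and Hochberg over all transcripts tested, was 7.09e-06. Control cells showed the same fall, from 133 ± 22 CPM (n = 3) in HSCs to 2.19 ± 1.40 CPM (n = 4) in RPs, or -5.91 ± 0.56 (SE) in log2 units, with an adjusted p of 9.77e-06 by edgeR. Dnmt3aKO HSCs, which enter neither comparison, held it at 114 ± 17 CPM (n = 3).

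ENSMUST00000205228.2 was at 24.7, 36.3, 4.33 and 16.7 CPM in Tet2KO HSC replicates 1 to 4. It had no count in Tet2KO RP replicates a, b and c and 3 counts in replicate d, at 0.487 CPM. All 4 HSC libraries lay above all 4 RP libraries, as the naming rule requires, although HSC replicate 3 was well below the other HSC libraries. The ratio of the means was 168 (95% counting interval 57.6 to 816) and the fitted change -6.97 ± 0.93 (SE) in log2 units, with an adjusted p of 2.85e-04 by edgeR. In Control cells it was at 28.9 ± 14.0 CPM (n = 3) in HSCs and had 3 counts over the 4 RP libraries, a ratio of 164 (95% counting interval 56.0 to 793). That fall passed the threshold as well, at -7.40 ± 0.95 (SE) in log2 units with an adjusted p of 1.76e-04 by edgeR.

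Of the transcripts higher in Tet2KO RPs, ENSMUST00000200235.1 was at 70.3, 5.59, 6.58 and 350.6 CPM in replicates a to d. It had 1 count over the 4 Tet2KO HSC libraries, in replicate 1. Every RP library lay above every HSC library, as the naming rule requires. Replicates a and d held it at more than 10 times the level of b and c. The fitted change was 10.94 ± 1.54 (SE) in log2 units, with an adjusted p of 8.03e-04 by edgeR, and the ratio of means 2579 (95% counting interval 463 to 101866). Without replicate d the log2 fold change was 8.94 (adjusted p = 0.00122, edgeR). Control RPs held the same transcript at 4.65, 4.27, 8.46 and 3.54 CPM, and Control HSCs had no count. The Control RP mean was at least 29.4-fold higher than the limit set by no count, with an adjusted p of 0.0659 by edgeR. The Control RP values thus lay close to those of Tet2KO RP replicates b and c.

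ENSMUST00000103558.2 had the largest fitted log2 fold change among the 181 higher transcripts that met the naming rule, and it rested on 1 library. Tet2KO RP replicate d held it at 200.6 CPM, against 1.34, 0.373 and 0.227 CPM in replicates a, b and c, and no Tet2KO HSC library had a count. The mean of 50.6 CPM, with an SD larger than the mean, was at least 507-fold above the limit that no count over the 4 HSC libraries allows (adjusted p = 0.0469, edgeR). Control RPs were also uneven, at 0.634, 0.570, 17.3 and 4.17 CPM in replicates a to d, and Control HSCs had 2 counts over 3 libraries (adjusted p = 0.328, edgeR). Without Tet2KO RP replicate d the transcript did not pass the filter on low counts and was not tested. Its call was lost in 10 of the 16 alternatives that gave an adjusted p.

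**Figure D1:**
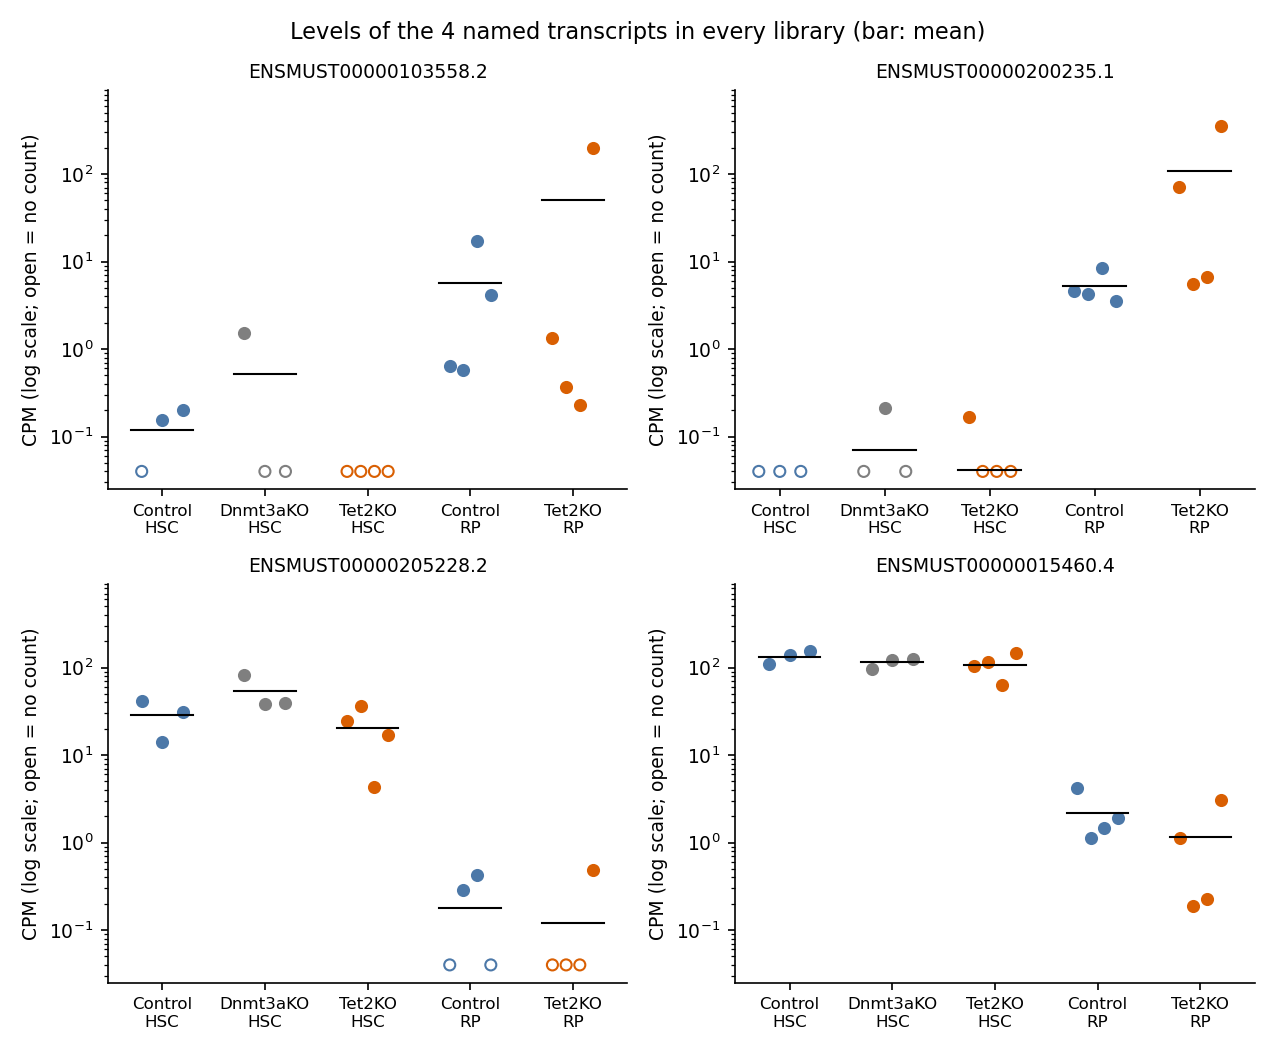
CPM (log axis) of the 4 named transcripts in every HSC and RP library, with open circles for libraries without a count and a bar at the mean of each group. The lower transcripts are uniformly low in both RP groups, while the higher transcripts reach 200.6 and 350.6 CPM in Tet2KO RP replicate d alone.

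Over all transcripts, 485 of 26820 tested (1.81%) differed between Tet2KO RPs and Tet2KO HSCs by edgeR's quasi-likelihood test. Of these, 208 (0.776% of those tested) were higher and 277 (1.03%) lower in RPs. With groups that lacked any count placed at a floor of 3 counts, 461 of the 485 differed at least 2-fold, 284 at least 4-fold and 101 at least 16-fold. Differences of at least 16-fold were mostly gains in RPs, with 73 higher and 28 lower. The median log2 fold change was 2.74 among the higher and -2.17 among the lower transcripts, beside 0.02 over all tested. The last transcript inside the threshold had an adjusted p of 0.0498 and a log2 fold change of -0.93, and the first outside had 0.0508 and -1.98 (edgeR).

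Few of the differences were a switch from no count to presence. Among the 208 higher transcripts 11 had no count in any Tet2KO HSC library, beside 69 of all 26820 tested. Among the 277 lower ones 5 had no count in any Tet2KO RP library, beside 40 of all 26820. The higher transcripts had a median level of 47.4 CPM in RPs, with 10% below 5.64 and 10% above 307 CPM. The lower ones had a median of 45.7 CPM in HSCs, with 10% below 8.03 and 10% above 267 CPM. All 4 RP libraries lay above all 4 HSC libraries for 198 of the 208 and below them for 269 of the 277. The share of all tested transcripts that separate in this way is 4.54% and 4.08%. Separation goes into the call itself, so it is a description of how even the libraries were.

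Tet2KO HSC replicate 4 reached the RP range in 9 of the 10 higher transcripts whose groups overlapped, and HSC replicates 1, 2 and 3 did so in 7, 7 and 6. From the other side, RP replicates b and c reached down to the HSC range in 5 transcripts each, replicate d in 1 and replicate a in 0. Among the 8 lower transcripts that overlapped, HSC replicate 3 and RP replicates c and d reached the other group in 4 each, and every other library in 1 or 2.

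The number of calls nevertheless depended on the libraries. It was 296 without Tet2KO RP replicate d, 312 without Tet2KO HSC replicate 2 and 322 without Tet2KO RP replicate a. Without both HSC libraries numbered 4 it was 439, of which 227 were higher and 212 lower, and 359 were among the 485.

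**Figure D2:**
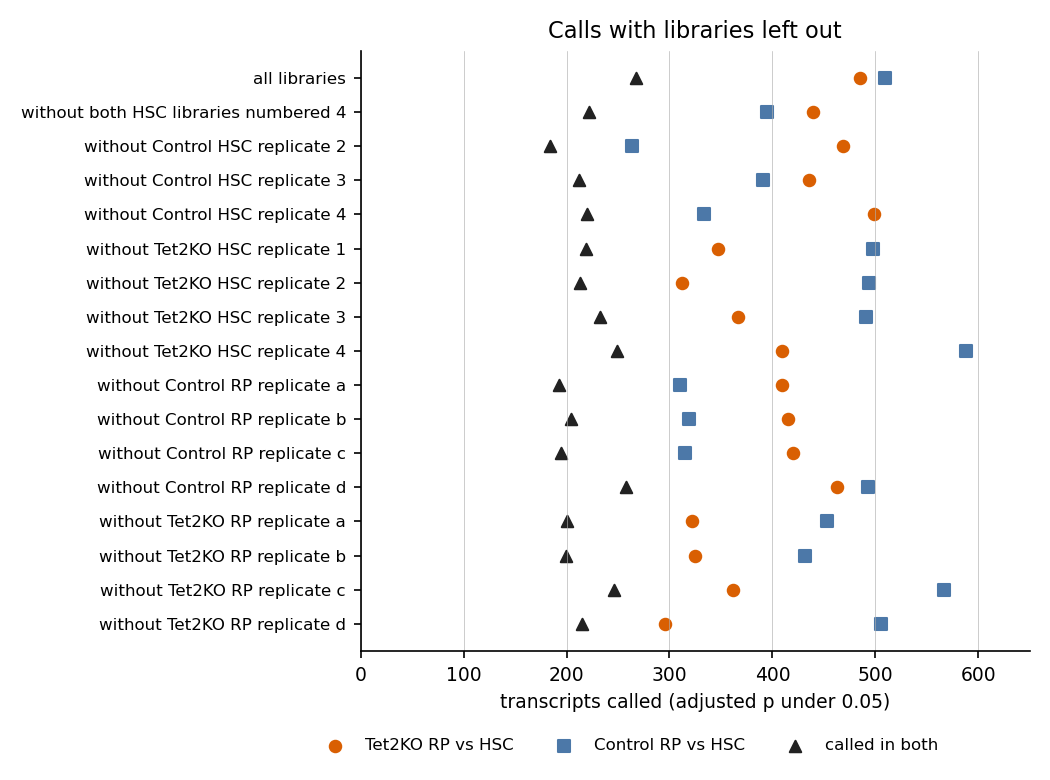
Number of transcripts called at an adjusted p under 0.05 (edgeR) with all libraries and with libraries left out, for Tet2KO RPs against HSCs (circles), Control RPs against HSCs (squares) and both (triangles). Tet2KO calls range from 296 to 499 and calls in both genotypes from 184 to 267.

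Most of the calls were abundant transcripts. The SD of the Tet2KO log2 fold changes was 0.77 in the most and 1.52 in the least abundant 5th. These SDs include measurement error, which was larger for rare transcripts. The counts by abundance show where differences could be called. Where the true differences were largest was not tested. Of the 485 calls, 269 fell in the top 5th of transcripts by abundance (mean of at least 22.1 CPM over the 4 group means), where 5.01% were called, and 132 in the next 5th, where 2.46% were. The least abundant 5th, at or below 1.46 CPM, held 11 calls, or 0.205% of its transcripts. Lower transcripts outnumbered higher ones in the top 5th, at 156 against 113, and in the next, at 80 against 52. In the second least abundant 5th the order was the opposite, with 14 higher and 7 lower.

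Control RPs and Control HSCs differed in 509 transcripts (1.9% of those tested), 215 higher (0.802%) and 294 lower (1.1%) in RPs. The comparisons of the Tet2KO and Control cells share no library. Both called 267 transcripts in the same direction, 93 higher and 174 lower, and 0 in opposite directions. These 267 were 55.1% of the Tet2KO calls and 52.5% of the Control calls. Differences toward lower levels in RPs were shared more widely, with 62.8% of the Tet2KO and 59.2% of the Control calls, than differences toward higher levels, with 44.7% and 43.3%. Whether these shares differ between the directions was not tested. Without both HSC libraries numbered 4, 222 transcripts passed in Tet2KO and Control cells alike, 95 of them higher and 127 lower. Without Control HSC replicate 2 the transcripts higher in Control RPs went from 215 to 69, and those higher in both genotypes from 93 to 47. DESeq2 called 837 higher and 663 lower in Control RPs, so the balance of directions turned. The Control count was 264 without Control HSC replicate 2, 334 without Control HSC replicate 4, and 310, 319 and 315 without Control RP replicates a, b and c.

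The 93 transcripts higher in RPs of both genotypes had a median log2 fold change of 2.96 in Tet2KO and 3.15 in Control cells. The 174 lower in both had medians of -2.38 and -2.79. Of the 93, 40 had the larger fold change in Tet2KO and 53 in Control cells. With groups that lacked any count at the floor, these numbers were 44 and 49. Of the 174, 53 were larger in Tet2KO and 121 in Control cells, or 52 and 122 with the floor. Among all tested transcripts, 11104 had the larger fold change in Tet2KO and 15716 in Control cells, or 11251 and 15569 with the floor. Control fold changes also spread more widely. Their SD was 0.86 in the most and 2.26 in the least abundant 5th of transcripts, against 0.77 and 1.52 in Tet2KO cells. The part of noise in these counts was not tested. Whether the shared transcripts differ from all tested in this respect was not tested. ENSMUST00000015460.4 and ENSMUST00000205228.2 are among the 174.

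**Figure D3:**
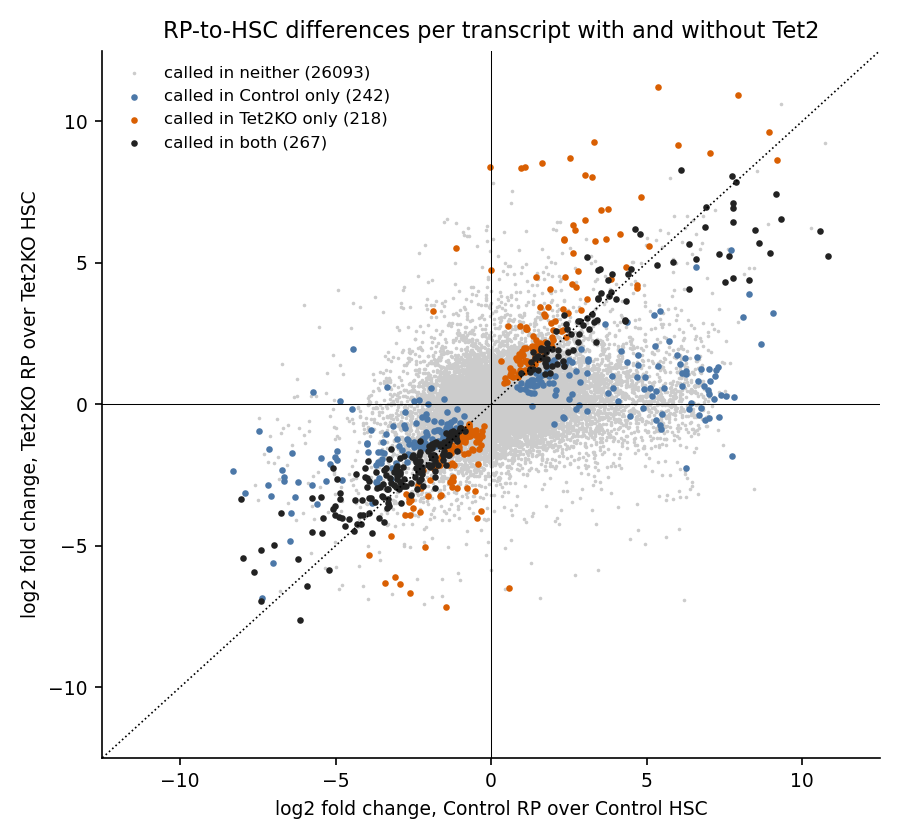
Log2 fold change of RPs over HSCs for each of the 26820 transcripts, in Control cells (horizontal axis) and in Tet2KO cells (vertical axis), with the dotted line at equal values. The 267 transcripts called in both genotypes (black) lie in the quadrants of equal sign by the definition of that class. Of those called in Control cells alone (blue), the 122 higher in RPs had a median of 0.79 in Tet2KO cells. The 120 lower had a median of -1.35. Not being called in Tet2KO cells is part of how these were chosen and favours small values there.

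The measured fold changes of the genotypes correlated most in abundant transcripts, which were also measured most precisely. Whether the genotypes resembled each other less in rare transcripts, beyond this noise, was not tested. Across the most abundant 5th the correlation between the fold changes in Tet2KO and in Control cells was 0.738 (Pearson, log2 scale) and 0.606 (Spearman), over 5364 transcripts, which are not independent replicates. Across the least abundant 5th they had 0.238 and 0.219. The median SE of the difference between genotypes moved with abundance, from 0.44 in the top to 1.85 in the bottom 5th on the log2 scale. The share of Tet2KO calls that were also called in Control cells was 59.1% in the top 5th and 27.3% in the bottom 5th, where it stood for 3 of 11 calls.

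**Figure D4:**
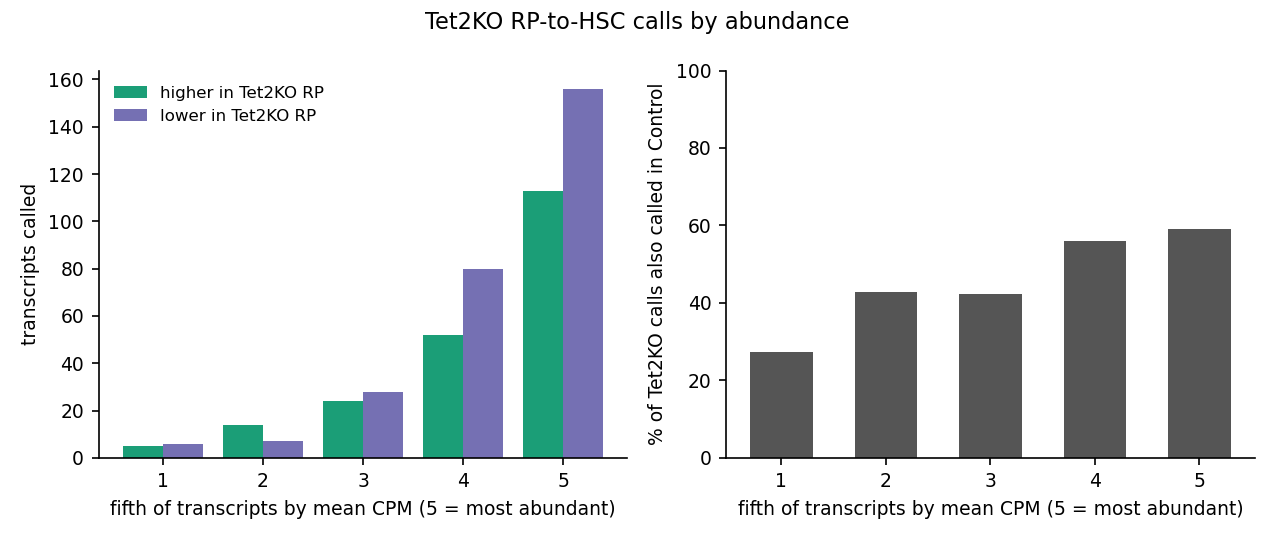
Left, transcripts called between Tet2KO RPs and HSCs in each 5th of transcripts by mean CPM, split by direction. Right, the percent of these calls that were also called between Control RPs and HSCs, which goes from 27.3% in the least to 59.1% in the most abundant 5th.

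Transcripts called between Control RPs and Control HSCs were then read in the Tet2KO libraries. The Tet2KO values are not part of that contrast, but all libraries shared the filter on low counts and the estimate of spread behind the calls. The 215 transcripts higher in Control RPs had a median log2 fold change of 1.47 in Tet2KO cells, beside 0.02 over all tested. Of them 194 were above 0 and 21 below, where 51% of all tested transcripts were above 0. An unadjusted p under 0.05 for a higher level in Tet2KO RPs was reached by 147 (5.05% of all tested), and for a lower level by 2 (5.29% of all tested, 10.3% in both directions). The 294 transcripts lower in Control RPs had a median of -1.91 in Tet2KO cells, with 285 below 0 (49% of all tested) and 9 above. An unadjusted p under 0.05 for a lower level was reached by 261, and for a higher level by 0. All 4 Tet2KO RP libraries lay above all 4 Tet2KO HSC libraries for 126 of the 215 (4.54% of all tested). All 4 lay below them for 227 of the 294 (4.08% of all tested). With each genotype fitted on its own libraries alone, the Control lists that were also tested in Tet2KO cells held 258 higher and 305 lower transcripts. Their medians in Tet2KO cells were 1.34 and -1.65.

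Read the other way, the 208 transcripts higher in Tet2KO RPs had a median of 2.06 in Control cells, against 2.74 in the Tet2KO cells that chose them, and 205 were above 0 (54.8% of all tested). The 277 lower ones had a median of -1.95, against -2.17, and 276 were below 0 (45.1% of all tested). An unadjusted p under 0.05 in the same direction in Control cells was reached by 182 of the 208 (9.21% of all tested) and by 251 of the 277 (5.57% of all tested, and 14.8% in both directions). All 4 Control RP libraries lay above all 3 Control HSC libraries for 178 of the 208 (9.88% of all tested) and below them for 241 of the 277 (6% of all tested). The choice of a list by its own libraries makes its fold changes there larger. For the Control-chosen lists the sizes were 3.41 in Control and 1.47 in Tet2KO cells for higher, and -2.71 and -1.91 for lower transcripts. Placing groups without any count at the floor turned the 3.41 into 3.16.

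The levels of the Control-chosen lists are given here by library, as a description. The median log2 CPM of the 215 was 2.78, 2.62, 2.64 and 2.31 in Tet2KO HSC replicates 1 to 4 and 4.60, 4.47, 4.41 and 4.60 in Tet2KO RP replicates a to d. These groups did not overlap, and HSC replicate 4 was the lowest of all 8. Control HSCs lay at 1.12, 1.59 and 1.65, below every Tet2KO HSC library, and Control RPs at 4.35 to 5.00, a range that includes all the Tet2KO RP libraries. The Control values helped to choose the list, so this gap between the HSC groups is no test. Dnmt3aKO HSCs, which are not in that contrast and entered it through the shared filter and spread only, lay at 1.96 to 2.45, above the Control HSCs and overlapping the lowest Tet2KO HSC library. Transcripts detected at equal depth were 31276 to 37439 in Control HSCs, 25496 to 38514 in Dnmt3aKO HSCs and 33540 to 44049 in Tet2KO HSCs. Replicate 4 had the fewest in each of these groups. Its median was the lowest of its group in Tet2KO (2.31) and Dnmt3aKO HSCs (1.96) but the highest in Control HSCs (1.65). The part of detection in the result was not tested.

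The median log2 CPM of the 294 transcripts lower in Control RPs was 2.74, 2.93, 3.03 and 2.90 in Tet2KO RP replicates a to d, above the 2.26 to 2.66 of Control RPs. Tet2KO HSCs lay at 4.97, 4.92, 4.68 and 5.05, overlapping the 4.98 to 5.24 of Control HSCs. Here too the Control values helped to choose the list.

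**Figure D5:**
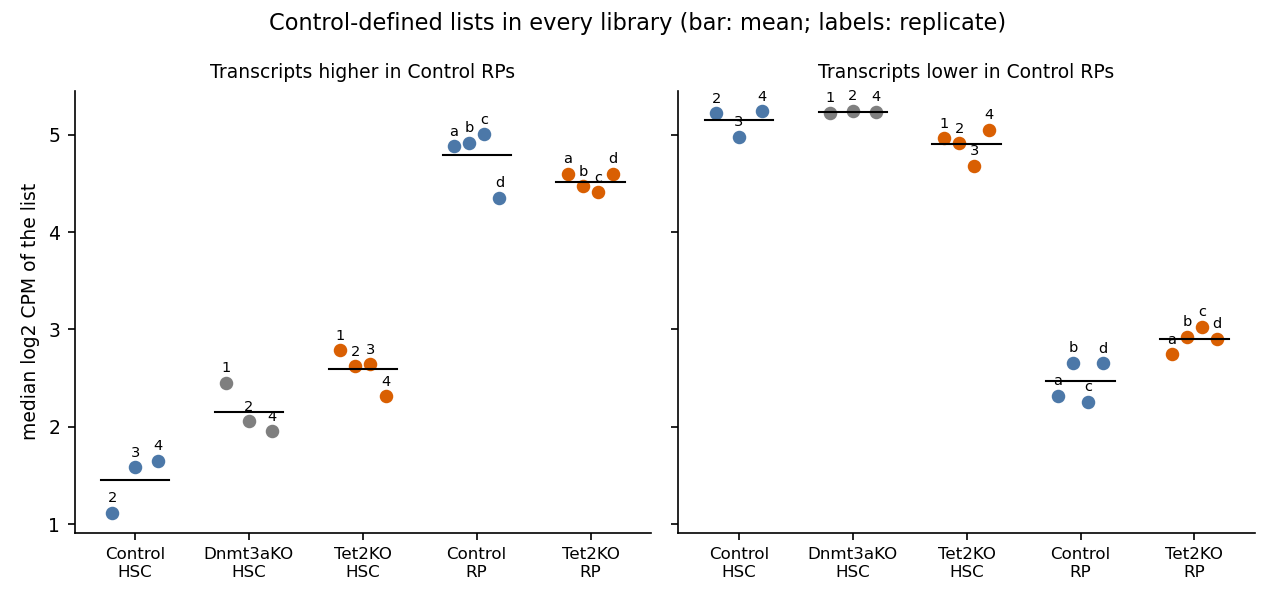
Median log2 CPM of the 215 transcripts higher (left) and the 294 lower (right) in Control RPs than in Control HSCs, for each library, with the mean of each group as a bar and the replicate as a label. Tet2KO RPs and HSCs stay apart in both lists, and the Tet2KO HSC libraries lie above the Control HSC libraries in the left list.

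Whether the RP-to-HSC difference itself changed with Tet2 was tested as an interaction, the Tet2KO minus the Control log2 fold change. It passed the threshold for 0 of 26820 transcripts in edgeR, and the lowest adjusted p was 0.640. An unadjusted p under 0.05 was reached by 1435 (5.35%), 432 above 0 and 1003 below. DESeq2 called 14 transcripts, 7 in each direction. The median SE of the interaction was 1.06 on the log2 scale over all tested transcripts. Without the filter on low counts edgeR called 241 transcripts, 135 above 0 and 106 below, of which 211 were also in the filtered table. As the calls depend on the tool and the filter, no transcript is called weakened or new here, and the classes below are described by size.

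Control cells alone called 122 transcripts as higher in RPs. In Tet2KO cells their median log2 fold change was 0.79, against 4.00 in Control cells (3.17 with the floor), with 101 above 0 and 21 below. In the same direction in Tet2KO cells, 54 of the 122 had an unadjusted p under 0.05 (5.05% of all tested). In the opposite direction 2 did (5.29% of all tested). The interaction had an unadjusted p under 0.05 for 79, or 64.8%, all toward a smaller difference in Tet2KO cells, beside 5.35% of all tested. Being called in one genotype and missed in the other selects for such values. The median Tet2KO minus Control difference of the 122 was 2.59 log2 units in HSCs and -0.15 in RPs. The class was chosen partly for low Control HSC values, so this does not show which cell type differs. Of the 122, 14 were called higher in Tet2KO HSCs (0.198% of all tested differed in HSCs). In Control HSCs 35 of the 122 had no count in any library, against 753 of 26820 among all tested, and in Tet2KO HSCs 0 of the 122 and 69 of the 26820 had none. Without both HSC libraries numbered 4 this class held 85 transcripts, of which 57, or 67.1%, had an unadjusted interaction p under 0.05. Of all tested in that fit, 6.30% had. The class held 22 without Control HSC replicate 2 and moved by more than 1.5 times in 6 of the 15 fits that leave out 1 library.

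Control cells alone called 120 transcripts as lower in RPs. Their median was -1.35 in Tet2KO and -2.68 in Control cells, and 111 of the 120 were below 0 in Tet2KO cells. An unadjusted p under 0.05 for a lower level in Tet2KO RPs was reached by 87 of the 120 (5.29% of all tested). The interaction had an unadjusted p under 0.05 for 42, or 35.0%, all toward a smaller difference in Tet2KO cells, beside 5.35% of all tested. The median Tet2KO minus Control difference was 0.91 log2 units in RPs and -0.43 in HSCs. Of the 120, 3 were called higher in Tet2KO RPs (0.134% of all tested differed in RPs). The class held 51 transcripts without Control RP replicate c and 191 without Tet2KO RP replicate c, and it moved by more than 1.5 times in 6 of the 15 fits that leave out 1 library. Low Control RP values are part of how it was chosen.

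Tet2KO cells alone called 115 transcripts as higher in RPs, with a median of 2.59 in Tet2KO and 1.52 in Control cells. In Control cells 112 of the 115 were above 0 (54.8% of all tested). An unadjusted p under 0.05 in the same direction there was reached by 89 (9.21% of all tested). The interaction reached an unadjusted p under 0.05 for 18, or 15.7%, beside 5.35% of all tested. The 103 transcripts lower in Tet2KO RPs alone had medians of -1.61 and -1.02, and 102 were below 0 in Control cells (45.1% of all tested). Of these, 77 had an unadjusted p under 0.05 for a lower level (5.57% of all tested). The interaction reached an unadjusted p under 0.05 for 15, or 14.6%, beside the same 5.35%. ENSMUST00000200235.1 and ENSMUST00000103558.2 belong to the 115. Over the 15 fits that leave out 1 library these classes held 48 to 168 and 31 to 136 transcripts, and they moved by more than 1.5 times in 7 and 6 of them. Without Tet2KO RP replicate d they held 50 and 31, and without both HSC libraries numbered 4 they held 132 and 85.

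The transcripts called in Tet2KO cells alone were also read in a contrast that holds no Tet2KO library, although its estimate of spread came from all libraries. Control RPs were set against Dnmt3aKO HSCs, which differ in genotype as well as in cell type, and 957 transcripts were called (3.57% of those tested), 463 higher (1.73%) and 494 lower (1.84%) in RPs. Of the 115 called higher in Tet2KO RPs alone, 60 were called higher there and 0 lower, with a median log2 fold change of 2.12. Of the 103 called lower, 45 were called lower and 0 higher, with a median of -1.20. Of the 93 and 174 called in both genotypes, 87 and 163 were called in the same direction. The same Control RP libraries took part in choosing all of these lists, the 115 and 103 by not being called in Control cells. Of the 115 and 103, 89 and 77 had an unadjusted p under 0.05 in the same direction against Control HSCs (edgeR). Among all tested, 9.21% did so for higher and 5.57% for lower levels. All of these counts are therefore a description and not independent support.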

How the data were processed

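The authors deposited raw read counts per Ensembl transcript (138835 transcripts, 36 columns), and per the file name these were counted over exons with a GENCODE annotation. Per the submitters' processing notes, which name no role, the tools include featureCounts, Subread, HTSeq 0.8.0, STAR 2.0.4 and edgeR 3.9, with mm10 as the build. Which tool counted, with what strand setting, and how shared exons were treated is not given in the sources used here. Counts of transcripts with shared exons, near-identical copies and overlapping or antisense genes are uncertain. Of the columns 18 were used and 18 matched no sample. HSC columns carry no cell type and were taken as HSCs because the others carry the RP name. RP columns were assigned to groups only and lettered in column order.

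All 18 libraries, including 3 of Dnmt3aKO HSCs, were fitted together with edgeR (version 4.0.16, R 4.3.3; quasi-likelihood, TMM scaling, filterByExpr with minimum count 10 and minimum total 15), with group as the only term and Benjamini-Hochberg adjustment at 0.05. The filter left 26820 transcripts with 98.92% of counts. The script was tested on simulated data. Log2 CPM used a prior count of 2. Floors are 3 counts over a group's libraries, and floors and 95% Poisson intervals cover counting error only. Each library counted as 1 replicate, as the labels number them. No pair of libraries of 1 group agreed within sampling noise (chi-square over degrees of freedom 9.45 or more). That alone does not show that they came from separate pools.

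The 4 named transcripts are the 2 largest fold changes per direction among calls with no overlap of libraries and a mean of at least 5 CPM in the higher group. Gene sums and gene lists were not run. DESeq2 1.42.0, other scaling and filters, smaller fits and left-out libraries were alternatives. Members and lists were chosen with earlier results of these data known, and the comparison with Dnmt3aKO HSCs was chosen after seeing the data.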

Additional observations from a re-analysis of the deposited data

Results flagged for a closer look

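Among 30 groups of 4 values examined with Dixon's criterion, 4 held a library far from the other 3. The 30 include ENSMUST00000103558.2 in Tet2KO HSCs, which had no count and could not be set apart. Chance alone sets apart about 1 group in 20 where values follow a normal distribution. That rate need not hold for CPM, which were examined without a log scale. It does not hold for 2 of the 4, in which 3 libraries had no count. ENSMUST00000103558.2 was at 200.6 CPM in Tet2KO RP replicate d, with the next library at 1.34 CPM. ENSMUST00000200235.1 was at 0.168 CPM in Tet2KO HSC replicate 1, from 1 count, and at 0 in the other libraries of that group. ENSMUST00000205228.2 was at 0.487 CPM in Tet2KO RP replicate d, from 3 counts, and at 0 in the others. The 294 transcripts lower in Control RPs made up 2.64% of the CPM in Tet2KO HSC replicate 3, with the next library at 2.89%.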

How the results depend on the processing

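With DESeq2 the calls were 1078 in Tet2KO cells, 1500 in Control cells, 574 in both and 14 for the interaction, and 483, 509 and 267 of the first 3 were among edgeR's. Without a filter on low counts, edgeR called 951, 1355, 479 and 241, and 211 of the 241 were in the filtered table. The cause was not tested. The share of higher calls in Control cells was 42.2%, and 55.8% and 55.1% in these alternatives. DESeq2's size factors in edgeR, a stricter filter, a fit of the 4 groups and, where it can be made, of the 2 groups kept the counts within 1.5 times, at 415 to 591 for Tet2KO and 542 to 694 for Control cells, with 0 interaction calls. Leaving out each of the 15 Tet2KO and Control libraries gave 296 to 499 Tet2KO calls, 264 to 588 Control calls, 184 to 258 in both and 0 for the interaction. With Dnmt3aKO in place of Control HSCs, 355 Tet2KO calls were shared, 250 of them among the 267. The median Tet2KO fold change of the Control-called lists kept its sign in all 23 alternatives, at 0.94 to 1.92 and -2.20 to -1.36 on the log2 scale. The calls of ENSMUST00000015460.4, ENSMUST00000205228.2 and ENSMUST00000200235.1 were kept in all 22 alternatives. No paired analysis was possible because the RP columns carry numbers other than the sample titles and could be tied to a group only, not to a numbered sample. Sums per gene were not run.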
